A study of Mus musculus with 10 samples.

Results

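The 492 regions described here are peaks of Rcor2 chromatin immunoprecipitation with sequencing (ChIP-seq) at mouse gene promoters at which Rcor2 coverage exceeded that of unprecipitated chromatin in both replicates. A peak was taken when the deposited table placed it in the promoter class and the smaller of its 2 Rcor2 heights was greater than the larger of its 2 input heights. The peaks were thus chosen by their measured Rcor2 and input heights. A height is a whole-number coverage value per peak and library. The rule held for 492 of 1619 promoter peaks, in a table of 6995 peaks of all classes. The other 1127 promoter peaks are called not above input below.

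Rcor2 (REST co-repressor 2) belongs to the CoREST family of scaffold proteins. These join the histone demethylase Kdm1a (LSD1) with histone deacetylases, and the complex removes marks of active chromatin at promoters and enhancers. In developing cortex such complexes are known for holding neuronal genes silent in progenitor cells, in part together with the repressor Rest.

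All libraries came from the cortical midline, the tissue next to the future corpus callosum, of C57/Bl6 embryos on embryonic day 14.5. The ChIP-seq tissue was wild type, with 2 libraries each of the Rcor2 antibody, of non-specific rabbit IgG and of total input. RNA-seq had 2 conditional knockout (cKO) libraries of genotype Rcor2f/f/EMX1-iCRE and 2 control libraries of genotype Rcor2f/f. The floxed alleles are thus common to both RNA groups, and Emx1 drives the recombinase in progenitors of the dorsal telencephalon, so cells of other origin in the dissected tissue keep Rcor2. The labels do not say how many embryos made a library, so p-values measure only the spread between these libraries, which may be technical.

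The RNA libraries held 27674987 to 30270598 reads. Rcor2 itself had normalized counts of 6363 and 6840 in the cKO libraries, against 7901 and 7257 in the control libraries. The deleted gene did not pass the threshold of 0.05 (log2 -0.20, SE 0.057, limma adjusted p 0.0541; edgeR adjusted p 0.1). It did with DESeq2 (adjusted p 0.0478) and in the authors' deposited table (adjusted p 0.0444). A count over the whole gene need not show the deleted exons. All 9 markers of cortical progenitors and neurons were measured, with summed counts of 73593 and 74173 in cKO and 75174 and 75522 in control. Within that list, 4 were higher in cKO by limma (Emx1, Emx2, Neurog2 and Pax6) and 2 lower, Neurod6 (log2 -0.42) and Tbr1 (-0.18), which mark neurons.

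Markers of other cells differed too. The 11 pericyte and mesenchyme markers summed to 10995 in cKO 1 and 4621 in cKO 2, against 4401 and 4193 in the controls. Blood markers summed to 1003 and 1604 in cKO, against 1876 and 2683 in control, and 2 of 6 tested were lower by limma. Choroid plexus markers summed to 929 and 852 in cKO, against 688 and 642 in control, with 2 of 5 tested higher and Kcne2 at 0 in all 4 libraries. Of 4 tested oligodendrocyte lineage markers, Pdgfra was higher (log2 0.66). None of the 10 endothelial and 9 microglia markers passed in limma. In bulk tissue, fewer cells of a type and less RNA per cell cannot be told apart.

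The sequence before the start of 6 genes is shown first, because it places the called peak relative to the promoter. Of these genes, Mrps30 (a mitochondrial ribosomal protein) and Slc25a38 (the mitochondrial glycine carrier of heme synthesis) had some of the highest Rcor2 to input ratios. Gabrb2 (a GABA-A receptor subunit) and Zbtb18 (a zinc finger repressor of cortical neurons) had lower RNA in cKO, and Zfp36l1 (a factor that speeds the decay of AU-rich mRNA) and Rpa2 (a subunit of the single-strand DNA binding complex) had higher RNA in cKO. Each run is the 250 bases before the RefSeq start in build GRCm38.p6, written 5′ to 3′ on the gene's strand. Capitals mark the bases inside the called peak.
Mrps30: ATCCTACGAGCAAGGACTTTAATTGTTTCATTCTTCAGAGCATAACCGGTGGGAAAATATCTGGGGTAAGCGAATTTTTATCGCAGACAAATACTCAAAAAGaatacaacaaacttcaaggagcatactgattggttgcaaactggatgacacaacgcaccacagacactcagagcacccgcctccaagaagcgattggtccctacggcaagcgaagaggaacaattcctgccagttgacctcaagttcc
Slc25a38: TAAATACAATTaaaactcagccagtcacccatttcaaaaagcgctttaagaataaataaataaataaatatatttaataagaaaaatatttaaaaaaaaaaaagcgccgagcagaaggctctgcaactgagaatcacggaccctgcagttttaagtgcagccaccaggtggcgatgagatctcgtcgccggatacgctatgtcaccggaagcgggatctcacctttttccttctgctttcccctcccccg
Gabrb2: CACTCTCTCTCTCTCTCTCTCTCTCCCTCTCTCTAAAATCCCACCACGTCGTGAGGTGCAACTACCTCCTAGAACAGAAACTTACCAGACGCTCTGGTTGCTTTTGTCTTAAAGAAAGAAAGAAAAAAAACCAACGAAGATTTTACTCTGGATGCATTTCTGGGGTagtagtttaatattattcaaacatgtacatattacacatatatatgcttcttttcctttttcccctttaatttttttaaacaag
Zbtb18: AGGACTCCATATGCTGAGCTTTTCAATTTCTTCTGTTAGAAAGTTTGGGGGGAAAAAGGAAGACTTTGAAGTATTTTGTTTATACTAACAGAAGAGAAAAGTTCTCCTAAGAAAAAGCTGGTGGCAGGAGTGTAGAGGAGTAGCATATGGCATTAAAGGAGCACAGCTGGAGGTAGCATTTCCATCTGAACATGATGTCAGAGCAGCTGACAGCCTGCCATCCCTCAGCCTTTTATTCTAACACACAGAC
Zfp36l1: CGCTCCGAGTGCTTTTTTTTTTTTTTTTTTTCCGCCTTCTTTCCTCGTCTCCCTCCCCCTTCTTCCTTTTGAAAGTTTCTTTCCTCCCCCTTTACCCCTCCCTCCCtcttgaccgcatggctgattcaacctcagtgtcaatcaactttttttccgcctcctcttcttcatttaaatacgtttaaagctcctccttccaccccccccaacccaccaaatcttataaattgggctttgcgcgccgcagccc
Rpa2: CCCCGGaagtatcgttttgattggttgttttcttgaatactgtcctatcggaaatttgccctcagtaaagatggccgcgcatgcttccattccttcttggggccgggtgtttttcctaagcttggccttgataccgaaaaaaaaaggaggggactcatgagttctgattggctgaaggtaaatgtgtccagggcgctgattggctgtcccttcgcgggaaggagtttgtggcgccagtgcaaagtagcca
Motifs in the runs were counted on both strands. Mrps30 (chr13:118387253-118387502, minus strand) had 102 of the 250 bases inside its peak. Between the peak and the start lay 2 CCAAT boxes, which read ATTGG in the run. Slc25a38 (chr9:120110132-120110381, plus strand) had 11 bases inside the peak. Gabrb2 (chr11:42420951-42421200, plus strand) had 166, with a GC content of 36.8% and 4 CpG pairs. Zbtb18 (chr1:177444403-177444652, plus strand) lay wholly inside its peak and held 0 CpG pairs. Its 1 TATAAA was on the opposite strand and reads TTTATA in the run. Zfp36l1 (chr12:80113014-80113263, minus strand) had 106 bases inside the peak. Rpa2 (chr4:132768110-132768359, plus strand) had 6, with 3 CCAAT boxes, again reading ATTGG, nearer the start. In 5 of these 6 genes the peak covered the run from its far end and stopped short of the start.

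Rcor2 heights chose the 492 peaks, so the heights below describe them and carry no test. The median peak had heights of 16 and 20 in Rcor2 replicates 1 and 2, of 5 and 3 in IgG, and of 11 and 10 in input. At promoter peaks not above input the medians were 12 and 19 in Rcor2, 4 and 3 in IgG and 18 and 17 in input. The 2 sets thus lay near each other in Rcor2 replicate 2 and in IgG, and furthest apart in input, where the selected peaks were lower. Rcor2 replicate 1 was the smaller of the pair at 414 of the 492 peaks (84.1%), so at those peaks its height was the one set against input. The heights are not scaled for depth as far as the values show, so a ratio between libraries of different kinds depends on their depths.

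**Figure D1:**
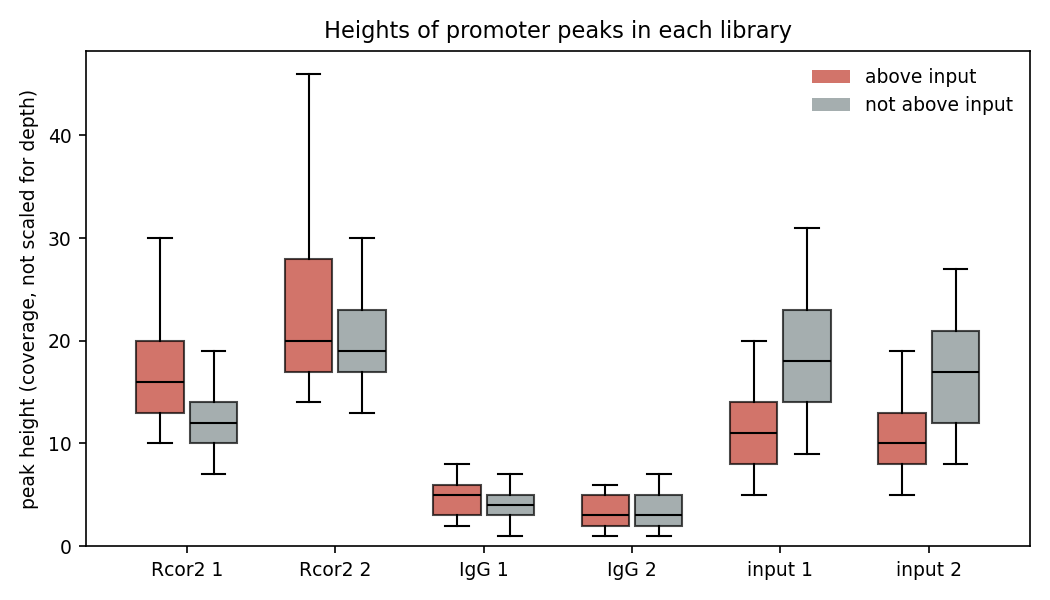
Coverage height per promoter peak in the 2 Rcor2, 2 IgG and 2 input libraries, for the 492 selected peaks and the 1127 peaks not above input. Boxes span the quartiles around the median and whiskers the 5th to 95th percentiles. The selected peaks have input medians of 11 and 10, against 18 and 17 for the others, and IgG medians of 5 and 3, against 4 and 3.

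Most of the 492 peaks exceeded input by a small margin. With 0.5 added to both heights, the ratio of the smaller Rcor2 height to the larger input height had a median of 1.29 and ran up to 4.71. The smaller Rcor2 height reached 1.5 times the larger input height at 160 peaks (32.5%) and 2 times at 57 (11.6%), while 99 peaks (20.1%) passed by a single unit of height. Just inside the limit lay Hes3, with Rcor2 heights of 33 and 46, IgG heights of 13 and 10 and input heights of 32 and 32. Just outside lay Cyb5b, with Rcor2 heights of 15 and 15, IgG heights of 1 and 2 and input heights of 15 and 11. The smaller Rcor2 height was above the larger IgG height at all 492 peaks, as peaks called against IgG would have it. Both IgG heights were below both input heights at 420 of the 492 peaks (85.4%) and at 1103 of the 1127 others (97.9%).

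**Figure D2:**
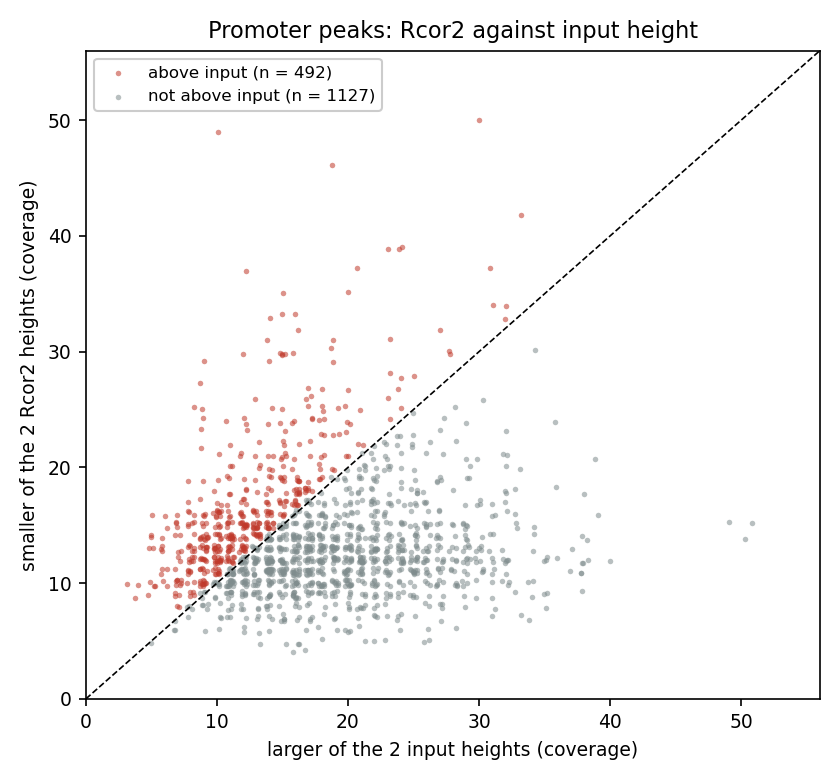
Smaller Rcor2 height against larger input height for each of the 1619 promoter peaks, with the dashed line at equality and points shifted slightly at random so that they overlap less. The 492 selected peaks lie above the line, most of them close to it, and H3f3a lies far above, at 49 against 10.

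Among the 4 location classes, promoters held the smallest share of peaks above input, given here as a description because the heights are those of the rule. The rule's height condition was met by 30.4% of promoter peaks, 42.4% of gene body peaks, 41.8% of distal peaks and 45.7% of intergenic peaks. Rcor2 replicate 1 had a median height of 13 over all promoter peaks and over gene body peaks alike, while input replicate 1 had 15 at promoter peaks and 12 at gene body peaks.

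By the authors' peak statistics the selected peaks were longer and stronger. Their median length was 288 bp, against 231 bp for promoter peaks not above input. The authors' median fold enrichment over IgG was 4.33 against 3.83, and their median −log10 q was 6.56 against 5.28. These values rest on the same Rcor2 libraries that chose the peaks.

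The highest ratio belonged to H3f3a, which encodes the replication-independent histone H3.3. Its peak (mm10 chr1:180811525-180812118) had heights of 49 and 59 in Rcor2, 5 and 2 in IgG and 9 and 10 in input, a ratio of 4.71, and its summit lay 1790 bp downstream of the start. Adam19, a membrane metalloprotease, had 37 and 54 in Rcor2, 6 and 5 in IgG and 11 and 12 in input (chr11:46056692-46057059, ratio 3). In both peaks each Rcor2 height was far above every IgG and input height. Mrps30 had 29 and 34 in Rcor2, 6 and 2 in IgG and 8 and 9 in input (ratio 3.11). Spin1, a reader of histone methylation, had 25 and 42 in Rcor2, 4 and 3 in IgG and 8 and 7 in input (ratio 3). Slc25a38 had 18 and 16 in Rcor2, 6 and 3 in IgG and 5 and 5 in input (ratio 3). The remaining 5 of the 10 highest ratios, from 2.64 to 3, lay at Foxc2 (a forkhead factor of mesenchyme), Tmem144 (a membrane protein), Chd9 (a chromatin remodeller), Kdm3a (a histone demethylase), and a region named for both Zfp830 and Cct6b. The Kdm3a peak (chr6:71634167-71634585) had 14 and 20 in Rcor2, 2 and 2 in IgG and 5 and 5 in input. Input heights at these 10 peaks were 3 to 12, so the ratios rest on small numbers.

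A second selected peak was present under 16 names. The 2 Aloxe3 peaks (chr11:69124182-69124646 and chr11:69124755-69125418) had heights of 30 and 37 and of 21 and 28 in Rcor2, against 15 and 8 and 13 and 6 in input. Lin28b, which encodes an RNA-binding inhibitor of let-7 maturation, had 2 peaks with 16 and 13 and with 15 and 20 in Rcor2, against 6 and 7 and 9 and 9 in input. Trim24, a chromatin reader, had 10 and 22 and 26 and 47 in Rcor2, against 7 and 6 and 17 and 13 in input. Ubxn2a, a cofactor of the p97 ATPase, had 16 and 20 and 20 and 19 in Rcor2, against 5 and 12 and 11 and 11 in input. Peaks of 1 name share their region and are not independent of each other.

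The summits of the selected peaks lay beside the start of the named gene more often than on it. A RefSeq start was known for the gene of 387 selected peaks and of 912 peaks not above input. The median distance of the summit from that start was 643 bp (quartiles 386 and 1233 bp) for the selected peaks, against 398 bp (232 and 686 bp) for the others. Within 250 bp on either side lay 48 summits (12.4%) of the selected peaks and 254 (27.9%) of the others. From 500 to 2000 bp downstream lay 118 (30.5%) of the selected and 148 (16.2%) of the others. Nearly all summits were within 2000 bp, 370 (95.6%) and 887 (97.3%). The promoter class is itself a position, so nearness to a start is partly set by the rule, for both sets alike. Within the class the sets differ by height, and whether input height itself depends on distance from a start was not tested.

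**Figure D3:**
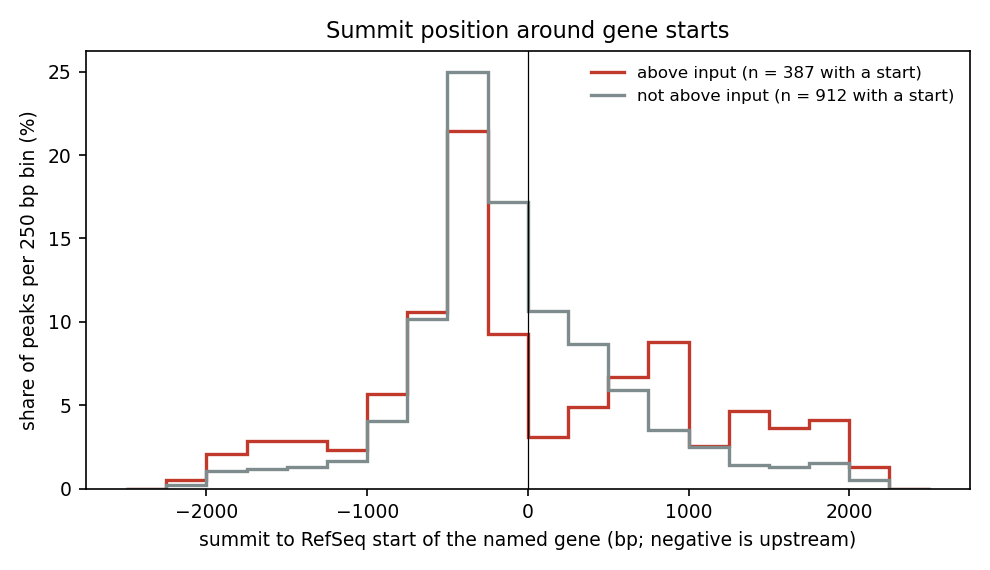
Share of summits by distance from the RefSeq start of the named gene (bp; negative values are upstream), for the 387 selected peaks and the 912 others with a start. Within 250 bp of the start lie 12.4% of the selected summits and 27.9% of the others.

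The promoters that the selected peaks overlapped were less rich in GC than those of the other promoter peaks. RefSeq windows of 300 bases (250 before and 50 after the start) were overlapped in 118 cases by a selected peak and in 415 by another. Median GC content was 52.3% in the first set, 60.3% in the second and 52.7% over all 32851 windows. Median CpG counts were 16, 21 and 7. The selected windows thus had a GC content near that of all promoters and more CpG pairs. A window that lies outside a peak is not described by these values.

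Searched on both strands, the GC box GGGCGG was in 47.5% of windows overlapped by selected peaks, 61.0% of those overlapped by other promoter peaks and 35.7% of all windows. The ETS motif CCGGAAG was in 22.0%, 17.6% and 8.86%. The CCAAT box was in 40.7%, 39.5% and 37.4%, and the Nrf1 motif in 13.6%, 15.9% and 4.60%. The left arm of the RE1 element bound by Rest, TTCAGCACC, was in 0, 0 and 0.371% of the windows, and the right arm in 0, 0.241% and 0.521%. A match or its lack says only whether these letters are in the window. The E-box CANNTG, which contains every CACGTG, was in 65.3%, 59.0% and 72.3%.

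The 492 peaks carried 516 gene names once names shared by 2 genes were split, and 481 of these were in the RNA table. After the filter on low values (a mean of at least 10 normalized counts) 456 remained, and 25 were left out. These 456 genes were compared between cKO and control midline, which asked whether genes with promoter peaks above input changed when Rcor2 was deleted. RNA values had no part in the choice of peaks. Levels are normalized read counts, not per length, so they are compared between libraries and not between genes.

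Of the 456 genes, 45 (9.87%) were higher in cKO, 18 (3.95%) were lower and 393 did not pass the limma adjusted p of 0.05. Over all 14324 tested genes, 14.5% were called, 6.16% higher and 8.29% lower in cKO. In total 63 of the 456 genes (13.8%) were called, a share close to that of all genes, while the split between higher and lower calls differed. Genes of promoter peaks not above input had 118 of 1053 (11.2%) higher and 68 (6.46%) lower. Genes with gene body or distal peaks and no promoter peak had 155 of 1484 (10.4%) higher and 214 (14.4%) lower. Genes named for no peak had 564 of 11329 (4.98%) higher and 888 (7.84%) lower. The share higher in cKO was thus above the background at genes of all 3 peak classes and lowest of them at the selected promoters, and the share lower in cKO was below the background at both promoter classes. Differences between these shares were not tested. With edgeR's quasi-likelihood test 43 of the genes were higher and 14 lower, against a background of 5.69% and 6.47%, and with DESeq2 47 and 11, against 5.93% and 6.53%.

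**Figure D4:**
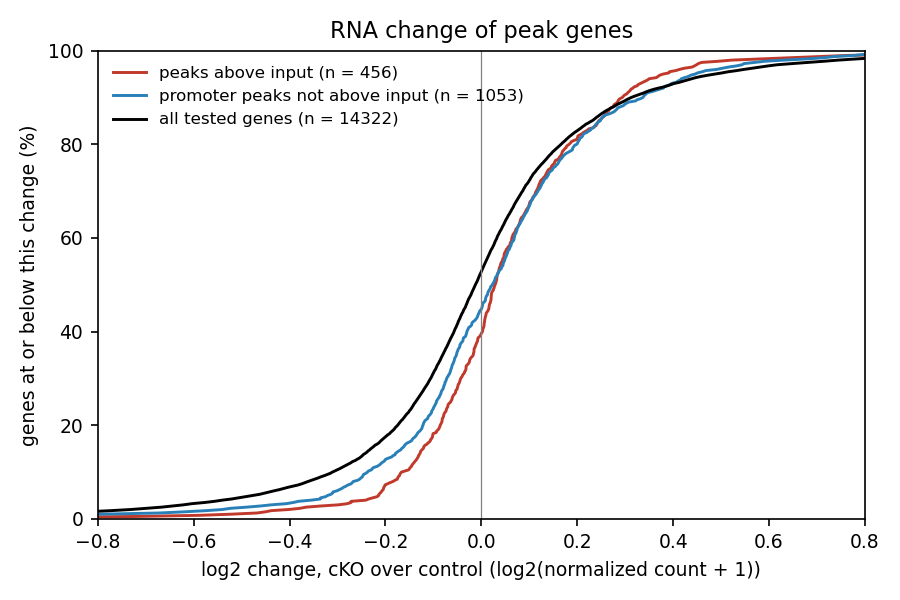
Cumulative share of genes (%) at or below each log2 change in cKO over control, for the 456 genes of selected peaks, the 1053 of other promoter peaks and all tested genes. The curves cross 50% at 0.03, 0.02 and -0.01, and on the side of lower RNA in cKO the curve of the selected peaks lies lowest.

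The changes were small. The median log2 change was 0.03 (quartiles -0.06 and 0.15), against 0.02 for genes of promoter peaks not above input and -0.01 for all tested genes. A positive change was found in 276 of 456 genes (60.5%), 55.3% of the other promoter genes and 47.3% of all genes. The median size of the change was 0.10, 0.12 and 0.13. Only 4 of the called genes changed at least 2-fold, Tnfaip6, Car14, Skap1 and Ldb2. All 4 belong to the 190 genes whose summit lay beyond 1000 bp from the RefSeq start or that had no such start, of which 17.9% were called, against 10.9% of the 266 genes with a nearer summit. In the 2 cKO libraries taken singly against both controls, the median over the 456 genes was 0.03 and 0.02. The 2 groups did not overlap at 275 genes (60.3%), against 61% of all genes, a share near the background.

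Within the selected set, peak strength and RNA change had little relation. Spearman's rho across the 456 genes was -0.04 between the Rcor2 to input ratio and the log2 change and 0.01 between that ratio and its size. It was 0.10 between the authors' −log10 q and the log2 change. Genes are not independent replicates, and these are descriptions. The median ratio was 1.21 for the 45 genes higher in cKO, 1.38 for the 18 lower and 1.29 for the 393 not called. Genes with another peak besides the selected one were called more often, 18 of 104 higher (17.3%) and 5 lower (4.81%), against 27 of 352 (7.67%) and 13 (3.69%) for those without. The difference between these shares was not tested.

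The largest rises were in Tnfaip6, Car14 and Skap1. Tnfaip6, which encodes a secreted hyaluronan-binding protein, had 85.4 and 70.5 counts in cKO, against 37.1 and 21.6 in control (log2 1.42, SE 0.29, limma adjusted p 0.0167). Car14, a membrane-bound carbonic anhydrase, had 988 and 790 in cKO, against 323 and 342 in control (log2 1.41, SE 0.11, limma adjusted p 0.0024). Skap1, an adaptor of T cell receptor signalling, had 99.7 and 79.3 in cKO, against 30.2 and 41.1 in control (log2 1.31, SE 0.24, limma adjusted p 0.0115). In all 3 the cKO libraries lay above both controls. Without cKO 1, the library with raised mesenchyme markers, the log2 value was 1.28 for Tnfaip6, 1.25 for Car14 and 1.15 for Skap1. The peak of Tnfaip6 had Rcor2 heights of 14 and 16 (input 2 and 7) and that of Car14 11 and 17 (input 9 and 8). The peak of Skap1 had 16 and 28 (input 15 and 15) and is also named for the predicted gene Gm11529.

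Crocc, which encodes rootletin of the ciliary rootlet, had 2677 and 2497 counts in cKO, against 1576 and 1476 in control (log2 0.76, SE 0.060, limma adjusted p 0.0024). Its peak (chr4:141051630-141051844) had Rcor2 heights of 15 and 17, IgG heights of 3 and 4 and input heights of 8 and 7. Rfx4, a transcription factor of dorsal brain midline development and cilium genes, had 1182 and 1054 in cKO, against 807 and 833 in control (log2 0.44, SE 0.074, limma adjusted p 0.0091). The Rfx4 peak (chr10:84754472-84754865) was the tallest at the 24 genes with the largest called changes, with 37 and 43 in Rcor2, 3 and 3 in IgG and 21 and 19 in input. Both genes had groups that did not overlap. The ciliated-cell factor Foxj1, of the choroid plexus list, was higher as well, with 727 and 659 in cKO, against 541 and 499 in control (log2 0.41, limma adjusted p 0.0183), as was Folr1 (log2 1.09, limma adjusted p 0.0186), while Ttr, a defining choroid plexus marker, had 9.25 and 5.87 in cKO, against 19.5 and 14.1 in control. Their part in the Crocc and Rfx4 values was not tested.

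Fn1, the extracellular matrix protein fibronectin, had 11022 and 7999 counts in cKO, against 5564 and 6529 in control (log2 0.64, SE 0.13, limma adjusted p 0.0186). Hif3a, a member of the hypoxia-inducible factor family, had 546 and 357 in cKO, against 287 and 265 in control (log2 0.68, SE 0.18, limma adjusted p 0.0399). Both were highest in cKO 1. Of the 11 mesenchyme markers 10 were tested and 2 were higher in cKO, none was at 0 in a library, and Col1a1 had 2442 and 611 in cKO, against 355 and 258 in control. Of the pericyte genes of the list, Abcc9 (log2 -0.23), Rgs5 (-0.23) and Kcnj8 (-0.25) went the other way, while Pdgfrb was higher (log2 0.20). None of them passed in limma. The part of these cells in the result was not tested. Without cKO 1 the log2 change was 0.41 for Fn1 and 0.37 for Hif3a. Hif3a then lost its call, as it did with edgeR (adjusted p 0.0567). Fn1 also lost its call with DESeq2 (adjusted p 0.065), and its peak is named for Apol7d as well. Foxc2, whose peak ranks among the highest ratios, had 26.7 and 0.979 counts in cKO, against 0.975 and 0 in control, and was below the filter.

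The other large rises were of 0.45 to 0.58 on the log2 scale. Ccdc8, a partner of the cullin Cul7, had 1220 and 1077 counts in cKO, against 786 and 747 in control (log2 0.58). Arid5b, an AT-rich interaction domain protein, had 461 and 444 in cKO, against 291 and 339 in control (log2 0.53). Alpk1, an alpha kinase of innate immune signalling, had 1084 and 1067 in cKO, against 791 and 726 in control (log2 0.50). Their limma adjusted p ranged from 0.0060 to 0.0158 and the groups did not overlap. Zfp36l1 had 3009 and 2673 in cKO, against 2068 and 2072 in control (log2 0.45, limma adjusted p 0.0063). Cyp39a1, an oxysterol hydroxylase, had 1050 and 919 in cKO, against 704 and 736 in control (log2 0.45, limma adjusted p 0.0115), and its peak is also named for Slc25a27.

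**Figure D5:**
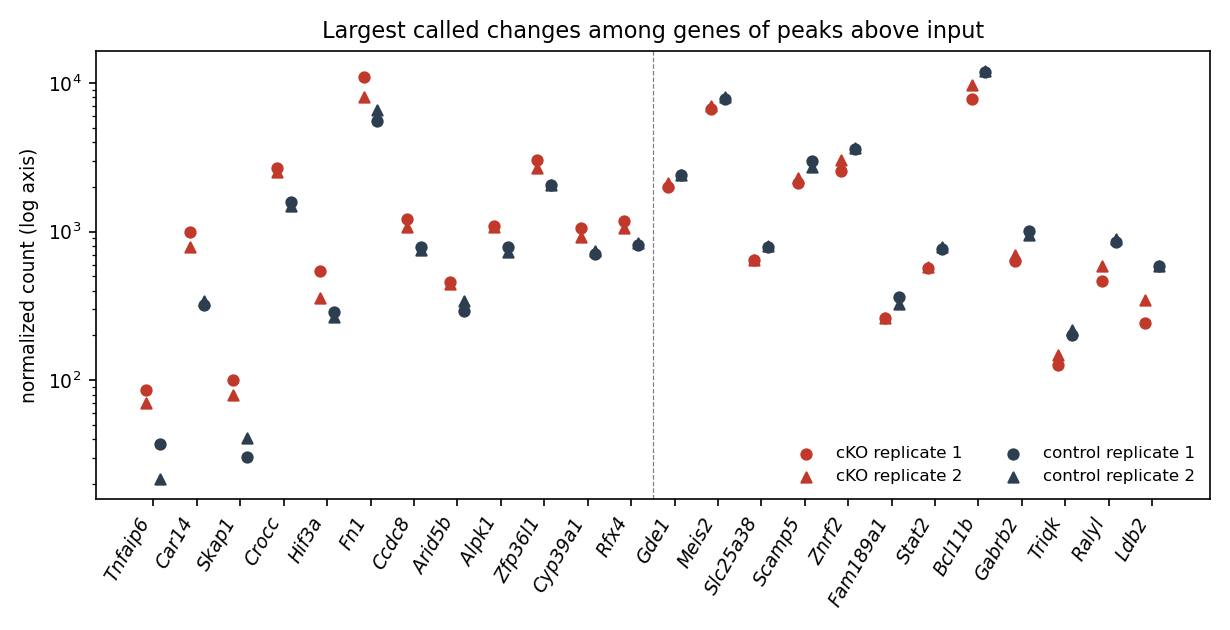
Normalized counts (log scale) in each cKO and control library for the genes with the largest rises and falls among called genes of selected peaks. Points are single libraries; Car14 stands at 988 and 790 in cKO against 323 and 342 in control, and Ldb2 at 242 and 345 against 588 and 585.

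The largest fall was in Ldb2. This gene, a LIM domain binding cofactor of deep-layer projection neurons, had 242 and 345 counts in cKO, against 588 and 585 in control (log2 -1.02, SE 0.15, limma adjusted p 0.0073). Bcl11b (Ctip2), a transcription factor of the same neurons, had 7827 and 9664 in cKO, against 11893 and 11995 in control (log2 -0.46, SE 0.086, limma adjusted p 0.0127). Gabrb2 had 639 and 700 in cKO, against 1014 and 944 in control (log2 -0.55, SE 0.077, limma adjusted p 0.0064). Ldb2 and Bcl11b were lowest in cKO 1, and without that library Ldb2 had a log2 change of -0.76. The Bcl11b peak (chr12:108004449-108004602) had heights of 15 and 16 in Rcor2, 3 and 3 in IgG and 7 and 13 in input.

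Ralyl, an RNA-binding protein of neurons, had 463 and 590 counts in cKO, against 857 and 895 in control (log2 -0.74, SE 0.11, limma adjusted p 0.0074). Scamp5, a secretory carrier membrane protein of synaptic vesicles, had 2137 and 2305 in cKO, against 2971 and 2708 in control (log2 -0.35, SE 0.063, limma adjusted p 0.0109). Meis2, a homeodomain factor, had 6674 and 6944 in cKO, against 7847 and 8018 in control (log2 -0.22, SE 0.044, limma adjusted p 0.0161). In all 3 the groups did not overlap. The neuron markers Neurod6 and Tbr1 were lower beside these genes and beside Ldb2 and Bcl11b, and their part in the falls was not tested. Stat2, of interferon signalling, had 568 and 578 in cKO, against 766 and 787 in control (log2 -0.44, limma adjusted p 0.0086). The ubiquitin ligase Znrf2 had 2570 and 3033 in cKO, against 3594 and 3620 in control (log2 -0.37, limma adjusted p 0.0158). Slc25a38 had 645 and 643 in cKO, against 791 and 799 in control (log2 -0.30, limma adjusted p 0.0235), the only gene among the 10 highest ratios to pass. Blood markers were lower beside it, with Alas2, the heme synthesis enzyme of red cells, at log2 -1.26 (limma adjusted p 0.0059) and Slc4a1 at -0.95 (limma adjusted p 0.0263), and their part in the Slc25a38 value was not tested. The falls of Triqk (log2 -0.60), Fam189a1 (-0.38) and Gde1 (-0.21, a glycerophosphodiester phosphodiesterase) had limma adjusted p values of 0.0243, 0.0468 and 0.0290. With DESeq2 these 3 and Slc25a38 were not called, and without cKO 1 these 3 were not called by limma.

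Most genes with the highest ratios did not pass. H3f3a had 1990 and 2737 counts in cKO, against 2249 and 2369 in control (log2 0.02, limma adjusted p 0.948). Adam19 had 914 and 967 in cKO, against 1152 and 1066 in control (log2 -0.24, limma adjusted p 0.0548). Mrps30 (log2 -0.06), Spin1 (-0.08), Chd9 (0.02), Kdm3a (0.06), Zfp830 (-0.04) and Tmem144 (0.28) did not pass, and Cct6b was below the filter. Of the 10 regions, only that of Slc25a38 had a called gene. The 2 cKO libraries of H3f3a lay on both sides of the controls, and its log2 change was 0.25 without cKO 1 and -0.21 without cKO 2.

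Among the pathway lists, 10 of the 77 tested ribosomal protein genes (13.0%) had a selected peak, against 3.18% of all tested genes. Another 6 (7.79%) had only a promoter peak not above input, against 7.35% of all tested genes. None of the 10 passed in limma, and their median log2 change was -0.02, against -0.01 for all 77, of which 2 were higher. Rpl7 had 10553 and 11269 counts in cKO, against 11352 and 11691 in control (log2 -0.08). Rps29 had a tall peak, with 34 and 56 in Rcor2, 5 and 6 in IgG and 23 and 31 in input, and its counts of 2024 and 3767 in cKO and 3195 and 1841 in control overlapped. Ribosomal protein genes have many near-identical processed copies, so their counts are uncertain.

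Chromatin regulators had 7 genes with a selected peak of 67 tested (10.4%), against 3.18% of all tested genes. Another 8 (11.9%) had only a promoter peak not above input, against 7.35% of all tested genes. Suz12, a core subunit of Polycomb repressive complex 2, had 6877 and 6048 counts in cKO, against 5027 and 5575 in control (log2 0.28, SE 0.072, limma adjusted p 0.0348), a call lost without cKO 1 (limma adjusted p 0.0804). Its peak had 25 and 36 in Rcor2, 4 and 4 in IgG and 13 and 15 in input. Cbx5, a heterochromatin protein, had 32033 and 30560 in cKO, against 28169 and 28856 in control (log2 0.13, limma adjusted p 0.103). It passed with DESeq2 (adjusted p 0.0307) but not with edgeR (adjusted p 0.142). The other 5, Kdm3a, Kdm4a, Hdac2, Smarcc1 and Chd2, did not pass in limma either, and the median of the 7 was 0.09, against 0.04 for the list. In the CoREST and LSD1 complex list, Kdm1b (a relative of Kdm1a) and Hdac2 had a selected peak, of 26 tested. Kdm1b had 1689 and 1702 in cKO, against 1953 and 1965 in control (log2 -0.21, limma adjusted p 0.0291), a call that edgeR's quasi-likelihood test lost (adjusted p 0.0522), as did DESeq2 (adjusted p 0.117) and limma without cKO 1 (adjusted p 0.0559). Its peak is named for Tpmt as well, which had a log2 change of -0.02. Hdac2 had 12521 and 13135 in cKO, against 12848 and 13078 in control (log2 -0.02).

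Several lists had no gene with a selected peak. No gene of the 45 tested Rest-repressed genes, the 46 cell cycle genes, the 35 radial glia genes, the 57 axon guidance genes, the 28 Notch pathway genes or the 20 Sonic hedgehog pathway genes had one, although 33 of the Rest-repressed genes were lower and 30 of the cell cycle genes higher in cKO. Only promoter peaks not above input were found at 7 radial glia genes (20%), 11 axon guidance genes (19.3%) and 7 cell cycle genes (15.2%). The same held for 3 Sonic hedgehog pathway (15%), 2 Notch pathway (7.14%) and 2 Rest-repressed genes (4.44%). Such peaks alone were at 7.35% of all tested genes, and selected peaks at 3.18%. Hes3, with a selected peak just inside the rule's limit, is not among the 28 Notch pathway genes. The pan-neuronal list had Elavl2 (log2 -0.15, limma adjusted p 0.0749), of 28 tested with 24 lower. The hem and dorsal midline list had Nkd1, an inhibitor of Wnt signalling, with 2096 and 2106 in cKO, against 1801 and 1657 in control (log2 0.28, limma adjusted p 0.0169), of 34 tested with 14 higher. Its summit lay at -7363 bp from the RefSeq start, although the deposited table classes the peak as promoter. The deep-layer list had Ldb2 and Bcl11b, of 21 tested with 8 lower and 4 higher. Histones had Hist1h2bh and Hist1h3f, which share 1 peak, of 56 tested with 26 higher. These 2 had log2 changes of 0.24 and 0.26.

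A further 6 called genes, all higher in cKO, are given here that were picked after their values were seen. None is in the cell cycle list, which had no gene with a selected peak. Genes of similar function with a selected peak that fell or were not called were not counted. Rpa2 had 1937 and 1825 counts in cKO, against 1515 and 1573 in control (log2 0.28, limma adjusted p 0.0155), and Rfc1, a subunit of the clamp loader, had 3862 and 3707 in cKO, against 3152 and 3251 in control (log2 0.24, limma adjusted p 0.0152). The groups overlapped in neither gene. Kif2c, a kinesin that takes microtubules apart, had 2423 and 2413 in cKO, against 1937 and 1864 in control (log2 0.35, limma adjusted p 0.0067). Prc1, a microtubule bundler of cell division, had 6032 and 6105 in cKO, against 5028 and 5158 in control (log2 0.25, limma adjusted p 0.0096). Wee1 (log2 0.30), which delays entry into mitosis, and Topbp1 (0.20), a replication checkpoint protein, were also higher, Topbp1 with no call without cKO 1 (limma adjusted p 0.055). Mfap2, a microfibril protein whose peak lay just inside the rule's limit (24 and 51 in Rcor2, 9 and 7 in IgG, 17 and 23 in input), had 3409 and 3011 in cKO, against 2469 and 2483 in control (log2 0.37, limma adjusted p 0.0096). Ubxn2a, with its 2 peaks, had 3101 and 3090 in cKO, against 2524 and 2582 in control (log2 0.28, limma adjusted p 0.0090). In both the groups did not overlap.

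Of the abundant genes, Zbtb18 had 29014 and 30686 counts in cKO, against 34405 and 34291 in control (log2 -0.20, limma adjusted p 0.0304), and Calm3, a calmodulin gene, had 14618 and 16014 in cKO, against 17916 and 17506 in control (log2 -0.21, limma adjusted p 0.0357). Both calls were lost with edgeR (adjusted p 0.0848 and 0.0909) and in limma without cKO 1. Both were made with DESeq2 (adjusted p 0.0040 and 0.0113). Tenm4, a teneurin, had 30871 and 28764 in cKO, against 25364 and 26527 in control (log2 0.20, limma adjusted p 0.0418), and carried 29 further peaks outside the selected one. Its call was lost with edgeR (adjusted p 0.0719) and in limma without cKO 1, and was made with DESeq2 (adjusted p 0.0018).

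The number of calls depended on single libraries. A limma fit without 1 library leaves 1 library in its group, so its spread comes from the other group alone. Its p-values and calls can thus rise or fall with the spread of that other group. Without control 1, 5 of the 456 genes were called by limma (Tnfaip6, Alpk1, Ccdc8, Crocc and Car14), and without control 2, 2 (Crocc and Car14), while without cKO 1 there were 45 and without cKO 2 110. In the authors' deposited table, 47 of the 438 genes with an adjusted p were higher and 11 were lower, against a background of 5.93% and 6.74%, and 51 of those calls were also made by limma.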

How the data were processed

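RNA-seq and ChIP-seq values were used as deposited. Per the submitters' processing notes, HISAT2 2.1.0, Trim Galore and mm10 were used, without the step being named. Gene counter, normalization method and peak caller: not given in the sources used here. The deposited RNA table gives normalized counts per gene, a signal the authors made by dividing read counts by 1 factor per library: 100% of values were whole multiples of 1 step within 1e-04, so whole reads were recovered for the count tests. Per the file headers, the deposited peak table gives pileup and heights (signal, whole-number coverage), the authors' fold enrichment over IgG (a ratio) and −log10 p and q values. The authors' deposited log2 fold changes, test score, p-values and adjusted p-values are cited only where the authors' table is named.

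Promoter class and gene names are the authors', by an unstated rule. Names shared by 2 genes were split (36 of the 492 peaks). Of the 516 names, 512 matched RefSeq and 393 a promoter window. Of the names in the RNA table, 23 had become dates and 2 selected peaks carry such a name; 1 duplicated name was left out. Apol7d, named with Fn1 for 1 peak, has its RefSeq gene on another chromosome.

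limma-trend (limma 3.58.1, R 4.3.3) was fitted without a block to log2(normalized count + 1) over 14324 genes averaging 10 or more (2014 left out), two-sided, with Benjamini-Hochberg adjustment over all of them and a threshold of 0.05. Log2 changes on this scale understate those of low genes. Residual degrees of freedom were 2 and prior degrees 6.21; exact permutation of 2 libraries against 2 gives no p under 0.333. edgeR 4.0.16 (quasi-likelihood) and DESeq2 1.42.0 on recovered reads, other filters, pseudocounts, scalings, a replicate block and each library left out were alternatives. The procedure was tested on simulated counts. Distances and windows used RefSeq GRCm38.p6, the assembly of mm10.

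Named genes were the 10 highest ratios of Rcor2 to input, up to 12 rises and 12 falls among calls (mean 50 or more, groups apart, autosomal, not a predicted gene), up to 4 called genes per list or its most abundant, and those beside the rule's limit or with 2 peaks. The selected peaks, lists and motifs were chosen with earlier results of these data known.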

Additional observations from a re-analysis of the deposited data

How the results depend on the processing

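The 63 calls among the 456 genes (45 higher, 18 lower) stayed within 1.5 times of their count with edgeR (57), DESeq2 (58), TMM scaling (63), a pseudocount of 0.5 (63), a mean of at least 50 (64), no filter (56) and unsplit shared names (55); of these alternatives DESeq2 gave 11 lower. With a replicate block the count was 61. The labels give libraries of both genotypes the numbers 1 and 2 but no litter or batch, and the deviations of same-numbered libraries correlated at 0.242 over only 2 pairs, so the pairing rests on a number alone.

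Leaving out 1 RNA library moved the 63 calls between 2 and 110, the 45 higher between 2 and 77, the 18 lower between 0 and 33, all higher genes (882) between 58 and 1532 and all lower genes (1188) between 82 and 1921. The low ends came without control 2; without control 1 there were 5 calls. Taking peaks of 1.5 times input left 22 calls (14 higher, 8 lower), summits within 1000 bp of the start, an alternative chosen after seeing the data, 29 (19 and 10), and a −log10 q of at least 5 gave 11 lower. The median log2 change of 0.0289 was 0.0466 with DESeq2, 0.0432 with TMM, 0.0459 with edgeR, 0.0209 at 1.5 times input and 0.0237 to 0.0429 without 1 library. The 492 peaks became 160 at 1.5 times input, 979 by the means of replicates, and 1214 without replicate 1 and 612 without replicate 2. H3f3a, not called at log2 0.02, ran from 0.246 without cKO 1 to -0.214 without cKO 2. The causes were not tested. Heights of a few units limit any ratio, and the depth of the ChIP libraries was not analysed here.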

Other observations

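Zinc finger genes whose symbols start with Zfp made up 23 of the 456 tested genes with a selected peak (5.04%), against 24 of 1053 genes of promoter peaks not above input (2.28%) and 358 of all tested genes (2.50%). The family was picked after its share was seen, and the share was not tested. Of the 23, 2 were higher in cKO and 0 were lower by limma, beside 6.16% higher and 8.29% lower among all tested genes, with a median log2 change of 0.02, and over all tested genes of the family 12 were higher and 14 lower. Zfp36l1, which shares the prefix, binds RNA and is no transcription factor. Mitochondrial ribosomal protein genes made up 3 of the 456 (0.658%), against 78 of all tested genes (0.545%).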
